A study of Homo sapiens with 7 samples.

Results

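Dense runs of HOXB13-K13ac regions were picked out of 2 chromatin immunoprecipitation sequencing (ChIP-seq) peak lists. Peaks of replicate 1 and of replicate 2 against input were merged where they shared at least 1 bp, and 26763 merged regions held a peak of both lists. Regions 10 kb apart or less were stitched into runs. The members are the 2769 regions (10.3% of 26763) that lay in a run of at least 5, and they formed 440 runs. The members were thus chosen by the positions of peaks in these 2 lists, and their number, spacing and fold enrichment in both lists are given as a description, without a test.

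The cells were C4-2B, an established castration-resistant line derived from LNCaP prostate cancer cells. All 7 libraries came from C4-2B grown in charcoal-stripped serum, which is low in steroid hormones, with no other treatment. There were 3 precipitations with an antibody to HOXB13 acetylated at lysine 13 (K13ac), 2 with control IgG and 2 inputs of unprecipitated chromatin. Replicate 1 bore the series number 2898, and replicates 2 and 3 bore 3047, each number with its own IgG and input. A single cell line was used, and the labels do not say whether the replicates were separate cultures. The lists hold no read counts, so depth is unknown. No source used here gives the control behind the replicate 1 list.

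HOXB13, a homeobox protein of the prostate epithelium, binds DNA with partners such as MEIS proteins and is known to share many sites with the androgen receptor. Acetylation of a lysine is a reversible mark that bromodomain proteins can read. Regulatory sites that crowd along the genome are often called super-enhancers when their signal is high, and such clusters are known near genes of cell identity. The runs described here rest on spacing and number alone and are not super-enhancer calls.

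Gene names were placed by general knowledge of hg19, since no annotation of that build was used here, and they are given only where the locus is well known. Positions are hg19 and counted from 1. All 65 gene symbols named at runs were present in the RefSeq gene table on the chromosome of their run.

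The reference promoters of 3 genes are shown because a member region covers the known start of each: KLK3 and KLK2, which encode the androgen-driven proteases PSA and kallikrein-related peptidase 2, and GULP1, an engulfment adaptor. They are the 250 bases before the start in RefSeq on the plus strand of GRCh38.p14: chr19:50854665-50854914 for KLK3, chr19:50873189-50873438 for KLK2 and chr2:188291624-188291873 for GULP1. Capitals mark the words found by a search of both strands. The words were CCAATAAA and CTCGTAAA for HOXB13. For forkhead proteins, known partners of steroid receptors, the word was TGTTTAC. The half-site of steroid receptors such as the androgen receptor was searched as AGAACA. For GATA factors, also active in prostate epithelium, it was AGATAA. MEIS proteins were searched for by the word TGACAG.
KLK3: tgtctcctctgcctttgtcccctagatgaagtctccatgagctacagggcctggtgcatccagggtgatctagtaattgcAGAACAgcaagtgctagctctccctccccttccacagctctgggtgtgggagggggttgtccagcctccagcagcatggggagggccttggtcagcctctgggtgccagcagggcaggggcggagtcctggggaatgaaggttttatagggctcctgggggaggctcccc
KLK2: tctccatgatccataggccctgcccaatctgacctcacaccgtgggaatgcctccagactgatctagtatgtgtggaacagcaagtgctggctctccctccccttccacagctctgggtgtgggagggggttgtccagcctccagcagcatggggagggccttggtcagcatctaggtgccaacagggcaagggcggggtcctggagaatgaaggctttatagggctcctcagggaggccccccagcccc
GULP1: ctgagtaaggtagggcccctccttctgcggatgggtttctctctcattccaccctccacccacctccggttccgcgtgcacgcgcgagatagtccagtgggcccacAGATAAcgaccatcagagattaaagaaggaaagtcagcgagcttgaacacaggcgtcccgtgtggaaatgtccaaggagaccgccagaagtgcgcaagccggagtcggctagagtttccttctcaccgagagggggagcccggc

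The KLK3 window held the steroid half-site, a word present in 12.4% of the 35116 RefSeq promoters of this length, and the KLK2 window held none of these 6 words. A further 4 words were searched and are not in capitals. The SP word GGGCGG (42.6% of all promoters) and the TATA word TATAAA (10.7%) were each present in both kallikrein windows and not in that of GULP1. The ETS word CCGGAAG (8.52%) and the AP-1 word TGANTCA (6.57%) were in none of the 3 windows. The GULP1 window held the GATA word, present in 9.17% of all promoters. The HOXB13 words CCAATAAA and CTCGTAAA were present in 0.863% and 0.117% of all promoters and in 0 of the 89 promoter windows found for the genes named at runs. The 89 came from only 46 of the 65 genes, and some overlap within the same gene, such as those of TRIB3. All these windows, the 3 printed included, are reference sequence, matched by gene name only, and their place relative to a peak summit was not measured.

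Runs were mostly small. Of the 440, 210 (47.7%) held exactly 5 regions, 105 held 6, 54 held 7 and only 24 held 10 or more. The runs with 10 or more contained 320 regions. Run length ranged from 4.52 kb to 88.8 kb, with a median of 19.8 kb (interquartile range 14.9 to 27.1). The regions covered a median of 42.2% of their run (31.3 to 57.1). The remainder was sequence between regions.

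**Figure D1:**
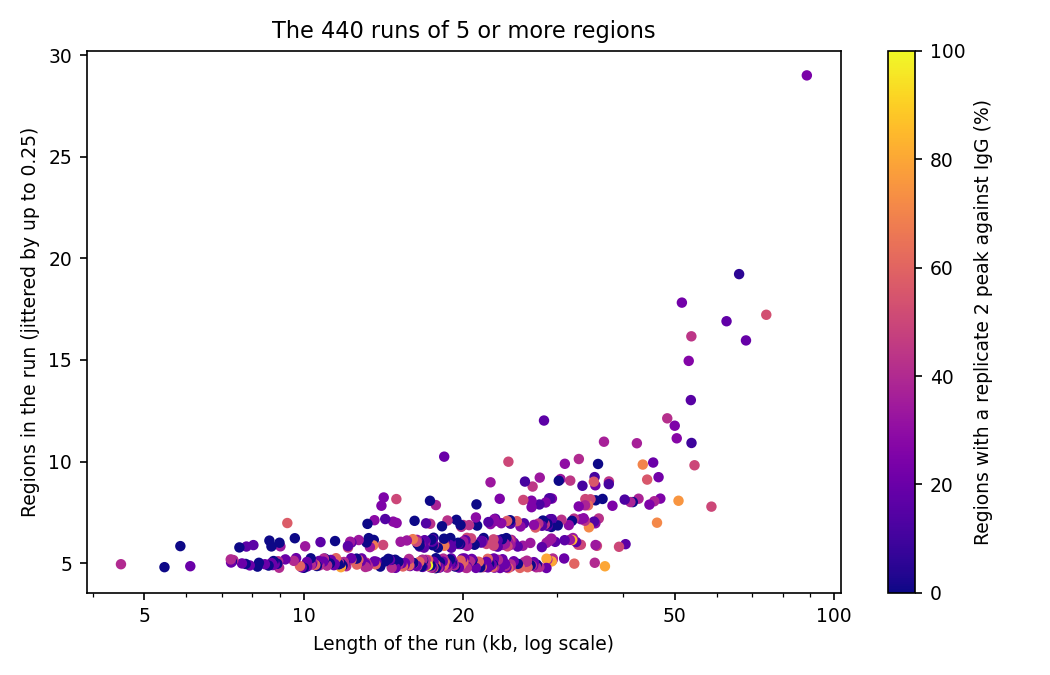
Each point is a run of 5 or more regions, placed by its length in kb on a log scale and its number of regions (jittered vertically by up to 0.25), with the colour giving the percent of its regions that had a replicate 2 peak against IgG. Of the 440 runs, 315 hold 5 or 6 regions, and the PPFIA2 run stands at the upper right with 29 regions in 88.8 kb.

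Neighbouring regions of a run were often very close. Over the 2329 gaps inside runs the median was 755 bp (166 to 4130), and 1231 gaps (52.9%) were under 1 kb. The 7522 gaps inside runs of fewer than 5 regions had a smaller median, 306 bp, so close neighbours are not particular to the members. In a setting chosen after seeing the data, regions less than 1 kb apart were counted as 1, and 86 runs with 491 such units were left. The number of runs thus depends on whether close regions are counted apart. With replicates 2 and 3 as the 2 lists of the rule there were 5 runs, and with replicates 1 and 3 there were 6. Gaps over 5 kb made up 20.3%.

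At the lower limit of the rule, 404 further runs held 4 regions. Their regions had a median replicate 2 fold enrichment of 9.35, and the regions in runs of exactly 5 had 9.78. Median run length was 11.9 kb for runs of 4 and 16.99 kb for runs of 5. At the 10 kb limit, 93 gaps inside runs were over 9 kb, and 37 runs had a region outside them within 11 kb.

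Fold enrichment of a region, taken as the highest of its peaks in a list, was much alike for members and for regions in smaller runs. For members the replicate 1 median was 5.50 (quartiles 3.98 and 8.46) and the replicate 2 median was 9.58 (6.45 and 15.7). The other 23994 regions had 5.89 (4.08 and 9.04) and 9.38 (6.45 and 14.8). In runs of 10 or more the medians were 5.01 and 8.52. Members were somewhat wider than the other regions pooled, with a median of 1153 bp against 996.5 bp. Single regions, at 1083 bp, were close to the 1103 bp of regions in runs of 5 to 6, and those in runs of 2 had 910 bp. Of the members, 21.4% exceeded 2 kb compared with 12.3% of all regions. A −log10 q of at least 5 in both lists was reached by 82.6% of members, near the 83.5% of all regions. The further list against input that no label ties to a library had a peak at 2415 members (87.2%), and at 87.1% of all regions.

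**Figure D2:**
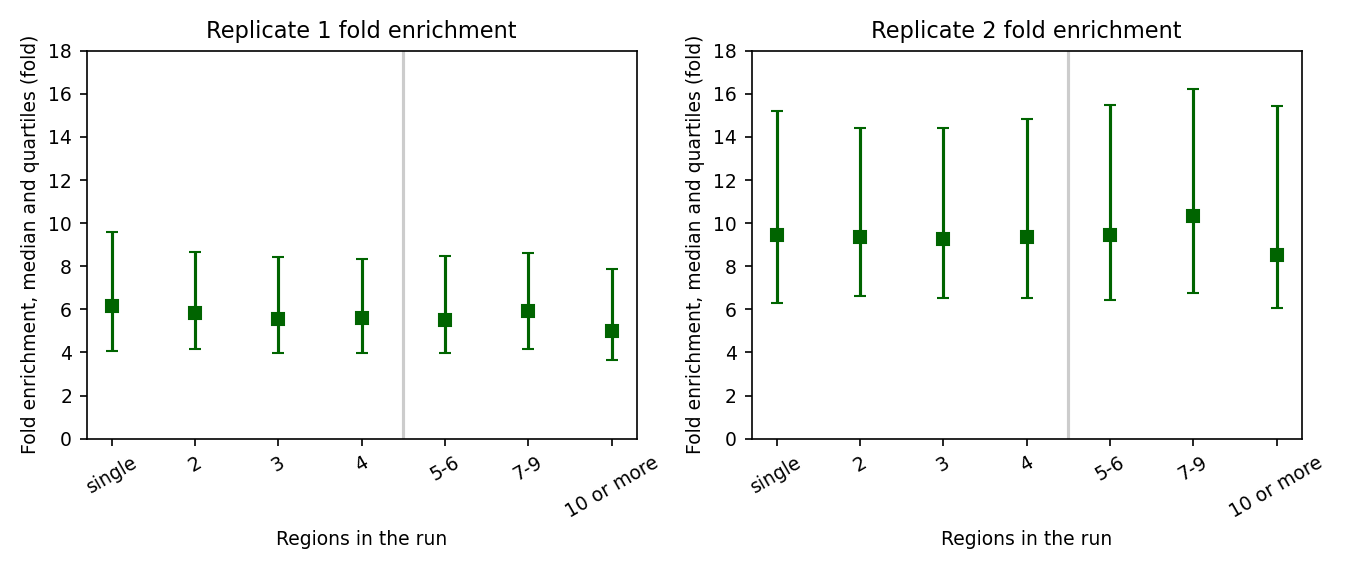
Median fold enrichment (squares) and quartiles (bars) of regions in replicate 1 (left) and replicate 2 (right), by the number of regions in the run, with the grey line separating runs under 5 from the members. The medians stay between 5.01 and 6.18 in replicate 1 and between 8.52 and 10.3 in replicate 2.

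To see which members also stood above a non-specific precipitation, replicate 2 peaks called against IgG were used. This list holds 7506 peaks, of which 21.5% have a q of 0.05 or less. It shares its precipitated library with the rule, so it is not independent of it. The replicate 3 list against IgG holds 1 peak, at a q above 0.05, and none in a run, so every IgG call given here comes from replicate 2 alone. A peak of this list was present at 734 members (26.5%, exact 95% binomial interval 24.9 to 28.2), and the background over all regions was 23.4%. Limited to IgG peaks whose q was 0.05 or less, there were 186 members (6.72%, 5.81 to 7.71) against a background of 5.61%. Both shares lay near the background. Intervals cover counting error only, and neighbouring regions are not independent. Members with an IgG call had median fold enrichments over input of 9.23 in replicate 1 and 19.1 in replicate 2, and a median width of 1960 bp. Those without had 4.69, 7.74 and 987 bp.

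The PPFIA2 gene, which encodes liprin-alpha-2, a scaffold protein of synapses, held the run with the most regions. It lay on chromosome 12 from 81909211 to 81998023, with 29 regions. Replicate 1 fold enrichment across them ran from 2.29 to 13.0 with a median of 3.76, and replicate 2 from 4.26 to 37.7 with a median of 8.69. Of the 29, 7 were called against IgG, 3 with a q of 0.05 or less. Most regions were weak and a few were strong. The strongest, from 81989090 to 81994294, was 5205 bp wide and had a fold enrichment of 7.56 in replicate 1 and 37.7 in replicate 2, with no replicate 3 peak. The first region of the run had 8.08, 32.999 and, in replicate 3, 4.20. The 18th region was the highest in replicate 1, at 13.0, and reached 19.8 in replicate 2. When regions under 1 kb apart were counted as 1, this run held 8. The 7th run by number of regions lay in the same gene, from 81771098 to 81824891, with 16 regions. Its strongest region had fold enrichments of 13.2, 33.4 and 3.39 in replicates 1, 2 and 3.

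The second run lay at GULP1 on chromosome 2, from 189143193 to 189209380, and held 19 regions. Here 1 region stood out: that from 189155274 to 189160102, in which the known start of GULP1 lies, had 18.7 in replicate 1 and 38.7 in replicate 2. The next highest region of the run in replicate 2 had 12.2. The strongest region was the only 1 of the 19 called against IgG, and none had a replicate 3 peak. A further 5 regions formed a separate run 16.4 kb beyond it.

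MIR99AHG, the host gene of a microRNA cluster on chromosome 21, held the third run, from 17674974 to 17726599, with 18 regions. The strongest of these had 7.87 in replicate 1 and 28.4 in replicate 2. Of the 18, 4 were called against IgG, 1 with a q of 0.05 or less, and none had a replicate 3 peak. Chosen after seeing their values, 2 smaller runs lay in the same gene, of 7 and 5 regions, with median replicate 2 fold enrichments of 6.16 and 6.69.

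The kallikrein genes KLK3, KLK2 and KLK4, classical androgen receptor targets, shared a run of 17 regions on chromosome 19 from 51338363 to 51412835. Its median replicate 2 fold enrichment, 17.9, was the highest among the 10 runs with the most regions, and the replicate 1 median was 5.06. The strongest region, from 51357183 to 51360314, contains the known KLK3 start whose promoter is printed above. It had 13.3 in replicate 1, 28.9 in replicate 2, 6.43 in replicate 3 and 4.70 against IgG. The region from 51375129 to 51378805, at the KLK2 start, had 9.20 in replicate 1 and 14.8 in replicate 2, with no replicate 3 peak. Upstream of KLK3, 3 wide regions had replicate 2 values of 25.1, 24.8 and 22.8. The region nearest KLK4 closed the run, with 5.06 and 18.9 in replicates 1 and 2.

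RASSF3, a member of the RAS-association domain family, lay at a run of 17 regions on chromosome 12 from 64943582 to 65006251. Its last region, at a known RASSF3 start, was the strongest, with 12.7 in replicate 1 and 29.9 in replicate 2, and the run median in replicate 2 was 6.33. NEDD4L, a ubiquitin ligase that acts on sodium channels, held 16 regions on chromosome 18 from 55862201 to 55930391. Its values were more even: the highest region by replicate 2 had 14.2 there and 7.18 in replicate 1. It spread over 68.2 kb and still held 11 units when regions under 1 kb apart were counted as 1, the most of the runs named by rule. In each of these runs, 3 regions were called against IgG and none had a replicate 3 peak. With a q of 0.05 or less, 1 called region remained at RASSF3 and none at NEDD4L.

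ABHD2, a serine hydrolase, held 15 regions on chromosome 15 from 89630644 to 89683824. Replicate 2 values ran from 3.76 to 25.1, and 4 of the 15 were called against IgG, none with a q of 0.05 or less. The highest, the 12th region, had 11.2, 25.1 and 4.43 in replicates 1, 2 and 3. HSD11B2, which inactivates cortisol, and ATP6V0D1, a proton pump subunit, shared a run of 13 regions on chromosome 16 from 67437576 to 67491246, with its strongest region first (10.1 and 30.6 in replicates 1 and 2) and 2 regions called against IgG. Of those 2, 1 had a q of 0.05 or less. The 10th run, of 12 regions on chromosome 8 at the non-coding gene LINC00589, also began with its strongest region. That region had 9.45, 39.7 and 4.37 in replicates 1, 2 and 3.

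**Figure D3:**
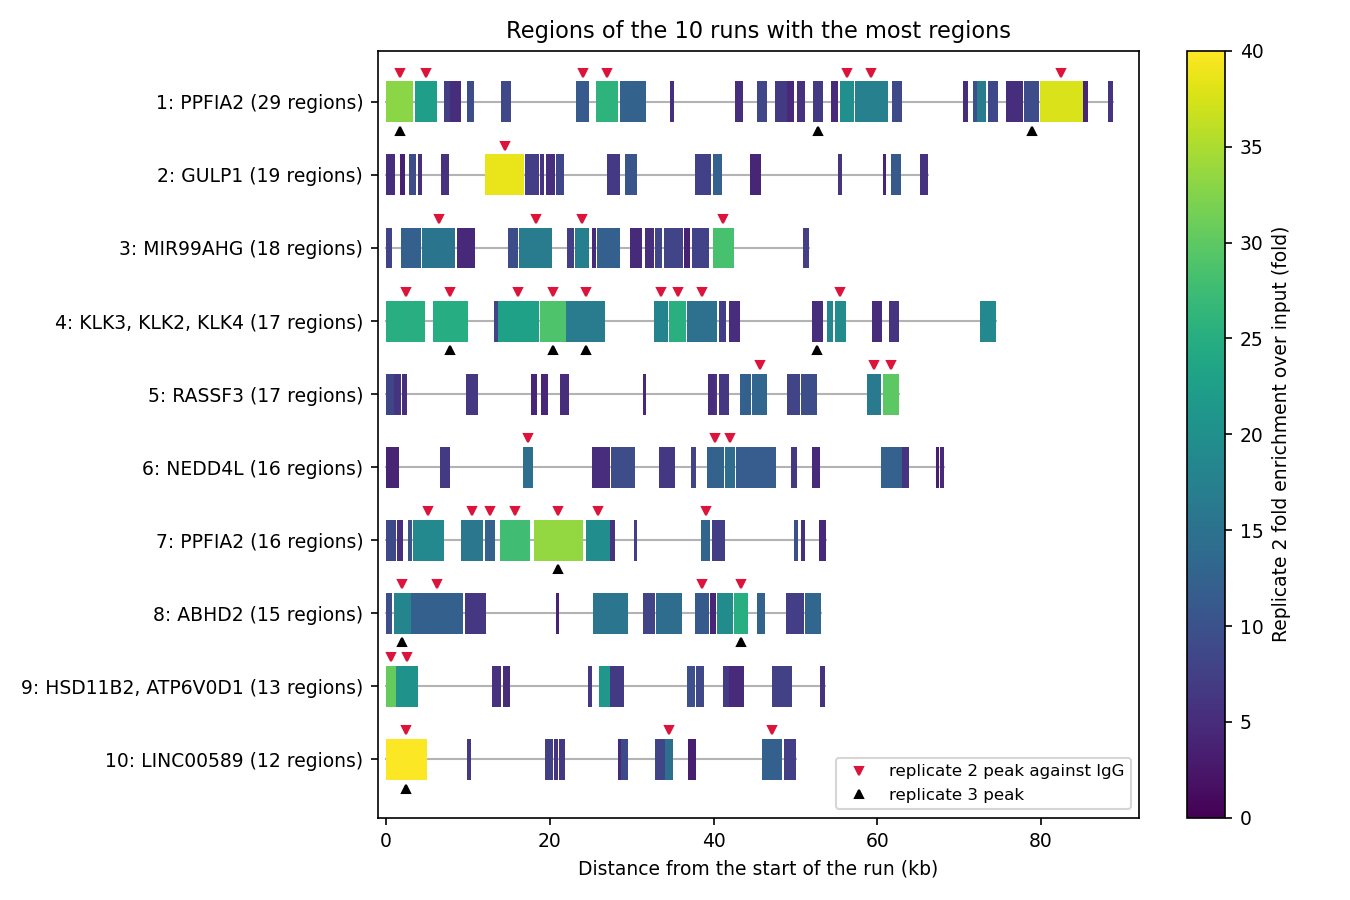
Each line is a run, drawn to scale from its start in kb, with bars for regions coloured by replicate 2 fold enrichment over input. Red triangles above mark regions with a replicate 2 peak against IgG and black triangles below mark regions with a replicate 3 peak. In the GULP1 run a single region (38.7-fold) carries the only IgG call, whereas 9 of the 17 kallikrein regions have one. Limited to IgG peaks with a q of 0.05 or less, the counts are 1 at GULP1 and 3 in the kallikrein run.

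The next 10 runs by number of regions held 10 to 12 each. Of these, 9 are named here. They lay at ATP5F1D, MIDN and CIRBP on chromosome 19, HSPB1 (a small heat shock protein) on chromosome 7, CASZ1 (a zinc finger factor) on chromosome 1 and NFIX (a nuclear factor I family member) on chromosome 19. Others lay at IP6K3 (an inositol phosphate kinase) on chromosome 6, PRR34 and MIRLET7BHG on chromosome 22, ZC3H12A (an RNase that degrades cytokine mRNA) on chromosome 1, NECAB3 and E2F1 (a cell cycle factor) on chromosome 20, and TANC1 (a scaffold protein) on chromosome 2. Their median replicate 2 fold enrichment ran from 6.11 at ZC3H12A to 16.9 at the CIRBP and E2F1 runs. The PRR34 run was covered over 93.5% of its 54.5 kb by regions of up to 16750 bp, and under the 1 kb rule it was 2 units.

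Number of regions and total enrichment ranked runs differently. Of the 20 runs with the most regions, 10 were also among the 20 with the highest summed replicate 2 fold enrichment. PPFIA2 and the kallikrein run were the first and second by that sum. The third was a run of 7 regions on chromosome 17, from 7122234 to 7168575, at DVL2 (a Wnt pathway protein), GABARAP (an autophagy protein), CTDNEP1 and CLDN7 (a tight junction claudin). Its median was 14.1 in replicate 1 and 35.9 in replicate 2, the highest replicate 2 median of all 440 runs. High medians were also found in runs of 5 or 6 regions at ZNF581 and CCDC106, at IRF2BPL, and at the chaperone gene HSP90AB1 with NFKBIE, with replicate 2 medians of 32.1, 25.2 and 24.3.

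Within a run, enrichment was uneven. The highest region was a median of 4.25 times the lowest in replicate 2 and 3.33 times in replicate 1. In 260 of 440 runs (59.1%) the same region was the highest in both lists, and in 16 of the 24 runs of 10 or more. Across the 2769 members, fold enrichment in the 2 lists had a Spearman's rho of 0.75. This describes regions that come from the same pair of libraries and are not independent. The strongest region was the first or last of its run in 139 runs (31.6%). As 315 runs hold 5 or 6 regions, the ends are a large part of the positions. No expected share was computed.

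**Figure D4:**
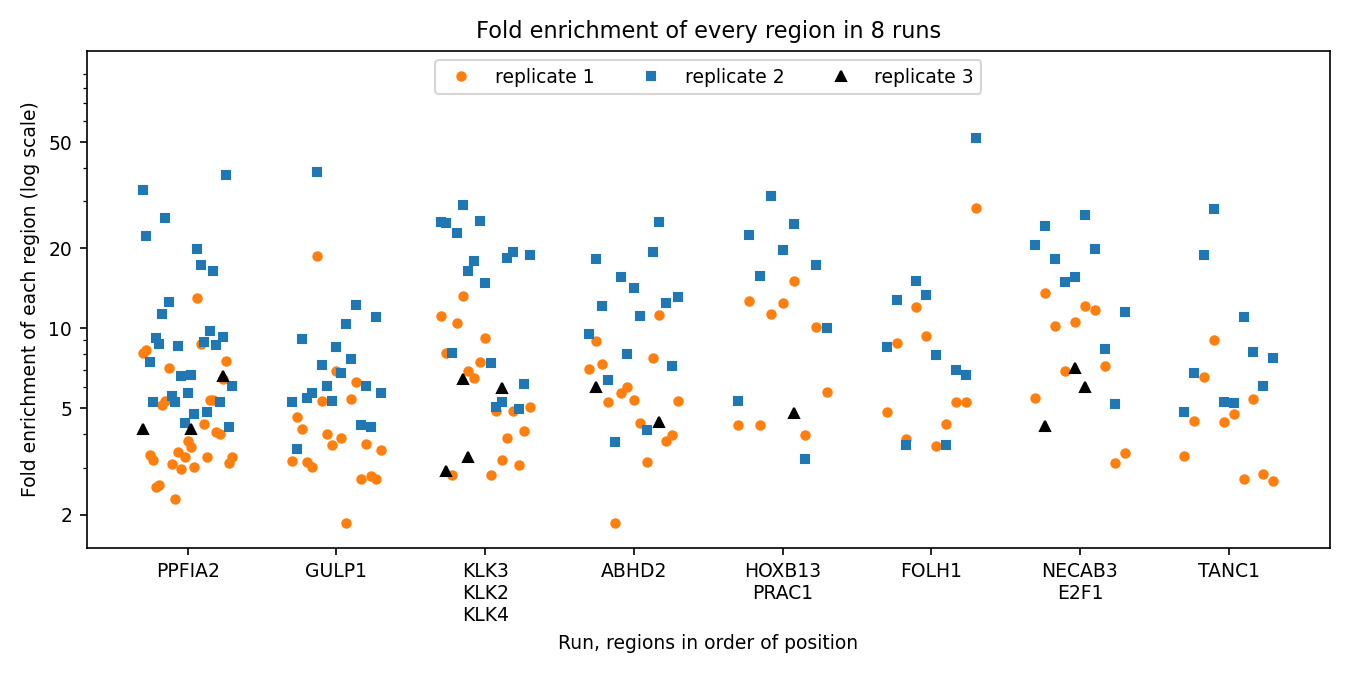
Fold enrichment on a log scale of every region in 8 runs, in order of position, for replicate 1 (circles), replicate 2 (squares) and, where a peak was present, replicate 3 (triangles). The GULP1 and FOLH1 runs have 1 region far above the rest, while the kallikrein and HOXB13 runs have several of similar height.

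By run, 344 of 440 held at least 1 region called against IgG and 96 held none. A run with more regions has more chances to hold one: 160 of 210 runs of exactly 5 did (76.2%), as did 246 of the 404 runs of 4 (60.9%) and 23 of the 24 runs of 10 or more. Only the run at MB (myoglobin) on chromosome 22 had all its regions called, 5 of 5, none with a q of 0.05 or less. Its regions had replicate 2 values over input from 13.2 to 26.2. This run was picked after its values were seen.

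Among the 71 runs of at least 8 regions, the highest IgG share was 6 of 8 at STEAP2, a metalloreductase highly expressed in prostate. The STEAP2 region from 89839529 to 89846067 on chromosome 7, which contains its known start, had 27.9 in replicate 1, 63.8 in replicate 2, 8.41 in replicate 3 and 6.06 against IgG. The E2F1 run followed with 7 of 10, then a run on chromosome 3 from 177062811 to 177097167 with 5 of 8. The 4th was at HOXB13 itself, on chromosome 17 from 46794838 to 46839240. There 5 of 9 regions were called, and the region from 46802068 to 46808032, which spans the HOXB13 gene, had 11.3 in replicate 1, 31.3 in replicate 2 and 4.39 against IgG, with no replicate 3 peak. HNRNPL, an RNA-binding protein gene, had 5 of 9. Limited to a q of 0.05 or less, the counts were 1 of 8 at STEAP2, 1 of 10 at E2F1, 0 of 8 in the chromosome 3 run, 1 of 9 at HOXB13 and 3 of 9 at HNRNPL, so the order of these runs depends on that limit.

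Of the 71 runs, 7 had no region called against IgG, and the first 5 of these by rank are named (ties at 8 regions fell in rank order). They had 0 of 10 at TANC1, 0 of 9 at CRIP2 and CRIP1, and 0 of 8 each at the HOXC genes HOXC10, HOXC9 and HOXC8, the HOXA genes HOXA7, HOXA9 and HOXA10, and SDC1 (a cell surface proteoglycan). Over input, the medians in replicates 1 and 2 were 4.47 and 7.27 at TANC1, 6.29 and 11.2 at CRIP2 and CRIP1, 6.18 and 10.97 in the HOXC run, 8.80 and 10.8 in the HOXA run, and 5.89 and 8.22 at SDC1. TANC1 thus lay below the medians of all members in both lists and SDC1 in replicate 2, and the other 3 lay above in both. By an approximation (3 counts of 8, not the exact interval used elsewhere), a count of 0 of 8 allows a share of up to 37.5%. That lies above the background, so no lower share was detectable at this size. These runs were also picked for their low share, which the approximation does not allow for. Chosen after seeing the values, a run of 8 regions at HOXB9 and HOXB7 had 1 region called, at a q above 0.05.

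Other prostate loci, chosen after seeing the values, were spread through the ranking. FOLH1, which encodes prostate-specific membrane antigen, held the 24th run, 10 regions on chromosome 11 from 49212607 to 49231002. Its last region, at the known start, had 28.3 in replicate 1, 51.9 in replicate 2 and 8.24 against IgG, while the other 9 lay between 3.65 and 15.1 in replicate 2. A run of 7 regions lay just upstream of TMPRSS2, an androgen-driven protease, on chromosome 21 from 42891817 to 42910474, with medians of 5.39 and 14.4 and 3 regions called against IgG. OR51E2, a prostate-enriched olfactory receptor, held 7 regions with medians of 3.21 and 6.22. TNK2, the gene of the ACK1 tyrosine kinase, held 6 regions on chromosome 3 from 195621846 to 195642160, with medians of 5.82 and 9.81. Of these, 2 were called against IgG and 2 had a replicate 3 peak.

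The 3 highest replicate 2 values among members lay in runs of 5 regions, also chosen after their values were seen. A region at the start of CSNK1D, a casein kinase gene, had 14.6 in replicate 1 and 79.1 in replicate 2, on chromosome 17 from 80230383 to 80232384. The last region of a run of 5 at TRIB3, a stress-response pseudokinase, had 25.2, 74.8 and 9.53 in replicates 1, 2 and 3. A region at the start of HSPA8, a constitutive chaperone, had 21.7, 69.4 and 6.56. In the HSPA8 run the other 4 regions reached at most 11.5 in replicate 2. Among larger runs, the 27th by number, at KLF16 on chromosome 19, had 9 regions and 1 value of 66.0 in replicate 2. The run at MALAT1, a long non-coding RNA on chromosome 11, also had 9, with replicate 2 values of 43.6 and 48.5 at its 3rd and 6th regions. At JUNB, an AP-1 transcription factor gene on chromosome 19, the 10 regions had medians of 7.31 in replicate 1 and 14.1 in replicate 2, and 4 were called against IgG.

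Replicate 3 was not used to choose the members. A replicate 3 peak was present at 430 of 2769 (15.5%, 14.2 to 16.9), and the background over all regions was 17.2%. Single regions had 19.6% (18.9 to 20.4), and runs of 10 or more 13.4% (9.90 to 17.7). Between them there was no steady fall: runs of 2, 3 and 4 had 15.6%, 14.8% and 15.8%. Runs of 5 to 6 had 14.9% and runs of 7 to 9 had 17.8%. The share in members thus lay close to that of all regions. Replicate 3 is 1 library with 18232 peaks, so no test between groups of regions was made. Members with both an IgG call and a replicate 3 peak numbered 239, which is 32.6% of those called against IgG. Of those not called, 9.39% had a replicate 3 peak. Called members were also wider (median 1960 bp against 987 bp), with a replicate 1 median of 9.23 against 4.69. The part of width and enrichment in this difference was not tested. The same split was not made over all regions, so it is not shown to be a trait of the runs.

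**Figure D5:**
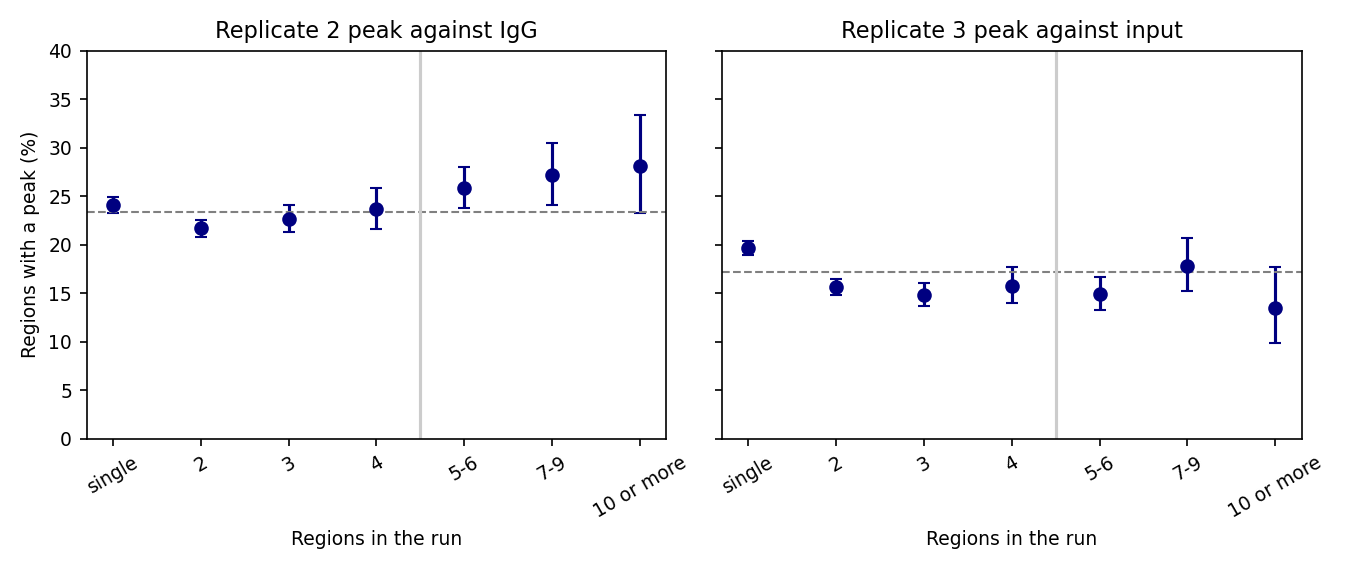
Percent of regions with a replicate 2 peak against IgG (left) and with a replicate 3 peak (right), by the number of regions in the run. Bars are exact 95% binomial intervals, dashed lines the share over all regions (23.4% and 17.2%), and the grey line separates runs under 5 from the members; every class lies within 13.4% to 28.1%.

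The strongest region of each run, by replicate 2, carried a replicate 3 peak in 171 of 440 runs (38.9%, 34.3 to 43.6), and the 2329 remaining members had one at 259 (11.1%, 9.87 to 12.5). The strongest regions were also wider (median 1946 bp against 1070 bp), and the part of width in this difference was not tested. Their replicate 1 median was 10.3 against 5.04. By run, 239 had at least 1 region with a replicate 3 peak and 201 had none, among them 8 of the 24 runs of 10 or more. In 72 runs neither replicate 3 nor the IgG comparison had a peak. These run counts depend on run size, since larger runs have more chances to hold a peak. They were not compared with replicate 3 counts for runs of fewer than 5 regions. They are therefore given as a description only. Per region, the replicate 3 share was 15.5% in members and 17.2% over all regions.

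High shares of regions with a replicate 3 peak were 5 of 6 at ZNF581 and CCDC106, 4 of 5 at KREMEN2 and PKMYT1, 5 of 7 at the DVL2 to CLDN7 run and 4 of 6 at MLST8, PGP and E4F1. At KREMEN2 and PKMYT1 the replicate 2 median was 6.60, below the median of all members.

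Runs were spread unevenly over chromosomes. Chromosome 1 had 44, chromosome 19 had 41 and chromosome 11 had 38. Chromosome 1 also had the most regions, 2569, and 10.5% of them were members, near the 10.3% over all chromosomes. As a share of the chromosome's own regions, members were 18.2% on chromosome 19, 15.6% on chromosome 11 and 15.1% on chromosome 21, and 5.08% on chromosome 7. Members come in blocks of at least 5, and these shares follow from the rule and were not tested. Replicate 3 peaks were present at 27.7% of members on chromosome 17, 27.1% on chromosome 19 and 26.6% on chromosome 16. The share was 4.67% on chromosome 2, 3.90% on chromosome X and 1.69% (1 of 59) on chromosome 21. Over all regions of the same chromosomes the shares were 22.5%, 20.8%, 21.2%, 10.9%, 6.63% and 14.1%. The 59 members on chromosome 21 came from 8 runs, among them the MIR99AHG runs of 18, 7 and 5 regions. Neighbouring regions are not independent, and these replicate 3 shares were not tested. Runs were often far apart, with a median of 804 kb to the nearest other run, and 81 runs (18.4%) had another within 100 kb.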

How the data were processed

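Peak lists from ChIP-seq of C4-2B cells were used. The submitters' processing notes name hg19 (GRCh37) and the tools MACS2, Bowtie2, BWA and CASAVA 1.4. How each was used, the peak threshold and any pooling are not stated there. Fold enrichment (a ratio to the control) and the −log10 p and −log10 q of each peak are as deposited by the authors. Lists were tied to libraries by spelling in the labels; replicates 1 and 3 differ there by 1 punctuation mark. Merging, stitching, counts and exact 95% binomial intervals were computed with Python 3.11.15, pandas 2.3.3, NumPy 2.4.6 and SciPy 1.17.1. Region and run counts equalled those of bedtools 2.31.1, and all 413 runs planted in simulated lists were found. The members, lists and rules were chosen with earlier results of these data known. Named by rule were the 20 runs with the most regions, the 5 with the highest and the 5 with the lowest IgG share among runs of at least 8, the 5 with the highest replicate 2 median and the 5 with the highest replicate 3 share. Some runs that the rule selects are not reported here. Alternatives changed stitching, overlap, q, run size and the lists used. Gene lists and motifs at summits were not run, because no hg19 annotation or genome was used here.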

Additional observations from a re-analysis of the deposited data

Results flagged for a closer look

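The HOXB13-K13ac list against input that no label ties to a library was not itself used to choose the members or in the replicate comparisons. It may come from a library that the rule used, so its peaks at the members cannot count as a repeat. A peak of this list was present at 2415 of the 2769 members (87.2%, 85.9 to 88.4), and the background over all regions was 87.1%. In 212 of 440 runs every region had such a peak, and no run was without one. It was present at 438 of the 440 strongest regions, which were picked by replicate 2, and at 84.9% of the remaining members. At the strongest regions of the PPFIA2, GULP1 and kallikrein runs its fold enrichment was 23.0, 22.0 and 19.7. Which library the list came from is not known here.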

How the results depend on the processing

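The number of runs and members moved with nearly every choice. Against 440 runs and 2769 members, stitching within 5 kb gave 215 and 1270, within 20 kb 782 and 5478, a −log10 q of at least 5 272 and 1630, an overlap of 0.5 of both widths 206 and 1215, and summits within 100 bp 80 and 453. At least 4 regions gave 844 and 4385, and at least 6 gave 230 and 1719. Counting regions under 1 kb apart as 1, added after seeing the data, gave 86 and 491. Leaving out each replicate in turn, with the other 2 in the rule, gave 5 to 440 runs and 27 to 2769 members; replicate 3 is not in the rule, and without replicate 1 or 2 there were 5 and 6 runs. The unassigned list in place of replicate 2 gave 420 runs, and whether that list shares a library with the rule is not known.

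The IgG share, 26.5%, was 28.3% at 5 kb, 31.8% at the q limit, 30.02% by summits, 29.7% with the unassigned list, 33.6% under the 1 kb rule and 6.72% when IgG peaks needed a q of 0.05 or less, and 26.5% to 66.7% when a replicate was left out (66.7% of 27 without replicate 1). The replicate 3 share, 15.5%, was 17.7% at 20 kb, 20% at the q limit, 17.8% at an overlap of 0.5, 18.8% by summits, 17.6% with the unassigned list and 26.9% under the 1 kb rule. The cause was not tested. The IgG share has no value without replicate 2, nor the replicate 3 share where that list is in the rule or left out.

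Of 36 runs named by rule, 34 still held at least 5 regions at the q limit, 28 under the 1 kb rule, 26 at an overlap of 0.5, 25 at 5 kb and 12 by summits. The PPFIA2 run, of 29 regions, held 10 at 5 kb, 33 at 20 kb, 14 at the q limit, 15 at an overlap of 0.5 and 8 by summits. No paired analysis was possible because no result comes from a test between groups. Depth is unknown, so a missing peak does not show an absent site.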
